A study of Mus musculus with 12 samples.

Results

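The difference between genotypes in the 24 h response to lipopolysaccharide (LPS) was examined in macrophages grown from mouse bone marrow, as the LPS response of Commd1 knockout cells minus the LPS response of wildtype cells. It used 8 of the 12 samples of the series: 2 wildtype and 2 Commd1 knockout mice, each with an untreated sample and a sample after 24 h of LPS, chosen by their titles. For each gene, this difference of response equals the genotype difference at 24 h minus the genotype difference in untreated cells, so a gene can differ because the genotypes started apart, because they ended apart, or both, and the genes were sorted on that basis.

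Bone marrow cells of both genotypes had been differentiated for 10 days with GM-CSF at 20 ng/ml and were either left untreated or given 10 ng/mL of Escherichia coli LPS. The labels name the genotypes Commd1 wildtype and Commd1 knockout and number the 4 mice, so the untreated and the 24 h sample of a replicate number came from 1 mouse and all comparisons of genotype were between 2 mice and 2 mice. The labels used here give no strain, age, targeted allele, nor the cells in which the gene was deleted. Each sample was hybridised to 1 single-colour array, and the small number of arrays limits the precision of every value below. An exact two-sided permutation test of 2 mice against 2 cannot give a p below 0.333, so tests were made with limma, which pools the spread over genes.

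LPS is sensed by the receptor TLR4, which activates NF-kB and MAP kinases within minutes and, through secreted type I interferon, a second wave of interferon-stimulated genes. Over the following hours macrophages switch on inflammatory cytokines, chemokines and complement genes, together with inhibitors that later restrain the same pathways. COMMD1 works in the CCC complex, a sorter of endosomal cargo such as copper transporters and receptors, and separately in the ubiquitin-dependent removal of RelA (the p65 subunit of NF-kB) from chromatin.

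Levels are log2 processed signals minus the 75th percentile of the array, so 0 is a bright probe and each unit is a 2-fold step; levels of different genes cannot be set against each other. The targeted gene was read first. The Commd1 probe (mm9 chr11:22856412-22856471) gave levels of 2.72 and 2.79 in untreated wildtype samples and -0.50 and -0.01 in untreated knockout samples. After 24 h of LPS it gave 2.89 and 2.85 in wildtype and -0.41 and 0.06 in knockout samples. All 4 knockout samples lay below all 4 wildtype samples, 8.05-fold lower untreated and 8.27-fold lower at 24 h. The difference of response was -0.04 ± 0.32 (log2 ± standard error, n = 2 mice per genotype, as everywhere below; adjusted p = 0.969).

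Macrophage markers were in place in every group, with 10 of 10 markers well above background on all arrays and a summed level (log2 of the summed signals) between 8.21 and 8.77. The summed level of 8 measured dendritic cell markers was 2.61 to 2.72 in untreated wildtype and 2.03 to 2.06 in untreated knockout cells, and 1.46 to 1.58 and 1.23 to 1.32 at 24 h. For 8 osteoclast markers it was 4.41 to 4.57 and 3.67 to 3.70 untreated, and 5.40 to 5.69 and 5.39 to 5.44 at 24 h. For 6 measured B cell markers it was -0.23 to -0.11 and 0.78 to 0.86 untreated, with Ms4a1 below background in the untreated knockout, and -0.70 to -0.67 and -0.38 to -0.18 at 24 h. For 9 measured neutrophil markers it was 4.58 to 4.72 and 4.49 to 4.53 untreated, and 4.70 to 4.81 and 4.49 to 4.66 at 24 h. The median genotype difference over these 9 was -0.91 untreated and -0.90 at 24 h, with 0 and 1 of them above 0. By limma 1 of them was lower untreated (3.0% of all genes were) and 0 were called at 24 h. The part of such cells in the results was not tested, and in a bulk sample fewer cells of a type and less RNA per cell cannot be told apart. Array quality also moved with the groups. The slope of signal on spike-in amount was 0.743 and 0.735 in untreated wildtype, 0.794 and 0.797 in untreated knockout, 0.824 and 0.820 in wildtype 24 h and 0.869 and 0.842 in knockout 24 h arrays. Untreated and 24 h arrays lay on different slides, and the genotypes on fixed positions within a slide, so slide and LPS, and position and genotype, cannot be told apart.

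The genes on which the results turn most are shown first by the 250 bases upstream of their transcription start, from RefSeq (GRCm38.p6), because both the largest decrease and the largest increase in response, among genes above background in all 4 groups, were found in genes that differed before LPS was given. Il1b, which encodes the cytokine interleukin-1 beta, had the largest decrease (chr2:129371140-129371389, minus strand). Cd200, which encodes a surface ligand that restrains myeloid cells through the receptor CD200R, had the largest increase (chr16:45409054-45409303, minus strand). Neither window holds any of the motifs searched, so both are in lower case throughout.
Il1b: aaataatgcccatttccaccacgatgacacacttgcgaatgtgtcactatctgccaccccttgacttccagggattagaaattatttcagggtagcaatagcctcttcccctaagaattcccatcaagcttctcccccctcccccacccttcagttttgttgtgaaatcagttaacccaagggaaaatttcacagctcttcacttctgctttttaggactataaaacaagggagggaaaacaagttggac
Cd200: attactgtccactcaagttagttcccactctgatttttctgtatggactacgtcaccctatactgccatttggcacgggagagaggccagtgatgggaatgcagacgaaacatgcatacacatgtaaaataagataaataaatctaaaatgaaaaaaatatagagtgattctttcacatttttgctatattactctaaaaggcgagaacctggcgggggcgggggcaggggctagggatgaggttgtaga

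By size of difference, Lhx2, Prss46 and C3 came next among genes above background in all 4 groups. Their windows also held no motif and are not shown. A further 3 windows were instead chosen after their matches were seen, and capitals mark those matches. They belong to Cxcl10, a chemokine gene induced by interferon (chr5:92348890-92349139, minus strand), and to Pilra (chr5:137836279-137836528, minus strand) and Pilrb1 (chr5:137858050-137858299, minus strand), which encode paired immunoglobulin-like receptors, the first inhibitory and the second activating.
Cxcl10: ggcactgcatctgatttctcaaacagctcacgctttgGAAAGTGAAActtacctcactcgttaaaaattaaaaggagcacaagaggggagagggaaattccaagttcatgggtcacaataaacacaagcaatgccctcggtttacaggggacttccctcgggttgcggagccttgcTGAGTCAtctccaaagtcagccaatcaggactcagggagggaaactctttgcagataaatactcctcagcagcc
Pilra: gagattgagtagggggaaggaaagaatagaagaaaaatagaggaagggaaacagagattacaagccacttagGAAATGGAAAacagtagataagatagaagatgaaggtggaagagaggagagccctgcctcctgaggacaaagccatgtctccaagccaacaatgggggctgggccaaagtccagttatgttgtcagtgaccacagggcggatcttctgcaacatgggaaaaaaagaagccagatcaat
Pilrb1: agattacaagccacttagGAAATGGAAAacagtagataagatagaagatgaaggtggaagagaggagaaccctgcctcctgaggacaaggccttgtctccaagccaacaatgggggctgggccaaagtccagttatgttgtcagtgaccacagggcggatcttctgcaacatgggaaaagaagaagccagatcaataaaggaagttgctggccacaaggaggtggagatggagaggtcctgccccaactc

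Both strands were searched for the NF-kB motif (GGG, 2 free bases and TTTCC), the interferon response element (GAAA and GAAA with 2 free bases between), TTCNNNGAA (gamma-activated site), TGACTCA (AP-1), TGCGCNC and TGCACNC (metal response element) and TTTCGCGC (E2F). The interferon response letters began at position -213 from the start of Cxcl10, -178 from that of Pilra and -232 from that of Pilrb1, each on the gene's own strand, and are found in 2.98% of all 32851 RefSeq windows of this length. Cxcl10 also held the AP-1 letters on the opposite strand at position -74, which 4.46% of all windows hold. Over their best overlap of 196 bases the Pilra and Pilrb1 windows were equal at 192 positions (98.0%). Among the 74 called genes with a window, 5 held the interferon response letters, among them the near-equal Pilra and Pilrb1, and 3 the NF-kB letters (1.41% of all windows). The gamma-activated site was held by 5 (7.02% of all windows) and AP-1 by 4 (4.46%). TGCGCNC was held by 10 (12.5%), TGCACNC by 12 (10.4%) and E2F by 0 (0.256%). A match is a description of letters and not evidence of binding.

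Across the 22726 genes with values in all 8 samples, the wildtype and knockout responses lay close to each other, with a Pearson correlation of 0.916 across genes, which are not independent replicates. The absolute difference of response was under 1 (a 2-fold difference) in 95.2% of them. Of 22993 genes tested for the wildtype response, 11483 (49.9%) passed an adjusted p of 0.05, and of 22990 in the knockout, 13224 (57.5%) did. The genes tested for the difference itself gave 94 calls of 22990 (0.409%), of which 42 (0.183%) were positive, meaning that the knockout rose more or fell less, and 52 (0.226%) were negative. The median difference over all genes was -0.05.

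Mice did not overlap in any of the 91 called genes that had a value in all 8 samples, so both knockout mice responded more, or both less, than both wildtype mice. The genes were called on these same samples, so this was nearly set by the call and is not further evidence. How many of all genes had non-overlapping mice at any size of difference was not counted, so the 91 cannot be set against that share. Under a stricter rule, with means also at least 2-fold apart, 939 of 22726 genes (4.13%) passed, 404 of them positive (1.78%) and 535 negative (2.35%). The share for non-overlap alone is larger than this. Adjusted p over the 94 ran from 0.0167 to just under 0.05 in limma, with a median of 0.0437. With the mouse as a block, which the labels justify, 153 genes were called, 56 positive and 97 negative, among them 65 of the 94. The number called also depended on single samples: without untreated knockout replicate 1 it was 4 and without replicate 2 it was 121, without untreated wildtype replicates 1 and 2 it was 21 and 23, without 24 h wildtype replicates 1 and 2 it was 15 and 40, and without 24 h knockout replicates 1 and 2 it was 241 and 196. Fitted on the 8 arrays alone, without the 3 h arrays that add to the estimate of the spread, 2 genes were called.

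**Figure D1:**
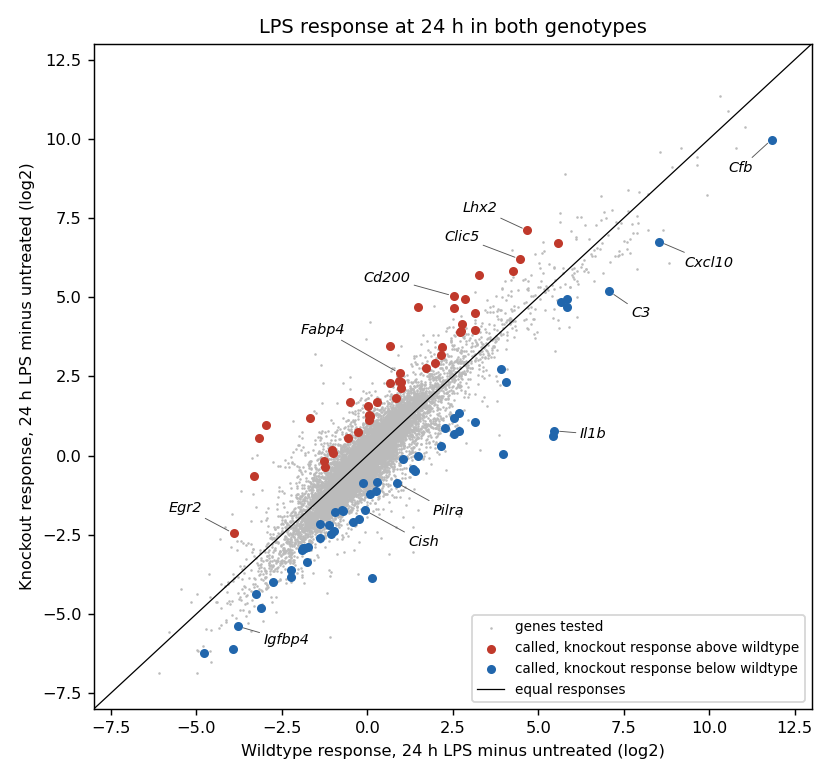
Each point is a gene, with the 24 h response (24 h LPS minus untreated, log2) of wildtype mice on the x axis and of knockout mice on the y axis, as means of 2 mice. Points above the line responded more in the knockout (42 called, red) and points below it less (52 called, blue). Il1b lies far below the line and Cd200 above it, while most genes stay within 1 unit of it.

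The 94 genes were sorted by which of the genotype differences at either time passed the test. Knockout and wildtype differed in 1548 of 22992 genes (6.73%) when untreated, 858 (3.73%) higher and 690 (3.0%) lower in the knockout, and in 549 (2.39%) at 24 h, 166 (0.722%) higher and 383 (1.67%) lower. Of the 94 genes, 55 passed when untreated only, 27 at 24 h only and 12 at both times, and differed is used below in this sense. The p-values were adjusted for each time separately, so with fewer calls at 24 h a difference of equal size is harder to call there. Coq8a, for example, counted as untreated only with 1.00 ± 0.15 untreated and -0.68 ± 0.15 at 24 h (limma adjusted p = 0.0122 and 0.0543). A difference that did not pass is therefore not shown to be absent. Sorted by size instead, 47 had an untreated difference at least 2 times the 24 h difference, 22 the opposite and 25 neither. Because the difference of response is built from the other contrasts, these classes describe the calls and are not further evidence for them.

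The sorting depended on the samples and on the scaling. Without untreated knockout replicate 1 the untreated difference was called in 152 genes, without untreated wildtype replicate 2 in 183, and the 24 h difference was called in 61 and 89 genes without 24 h wildtype replicates 1 and 2. After division by the spike-in slope 6390 genes differed when untreated and 134 at 24 h, 69 of the latter higher and 65 lower, and the median untreated difference over all genes moved from 0.04 to 0.14. With normexp background correction the 24 h split was 320 higher and 339 lower.

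**Figure D2:**
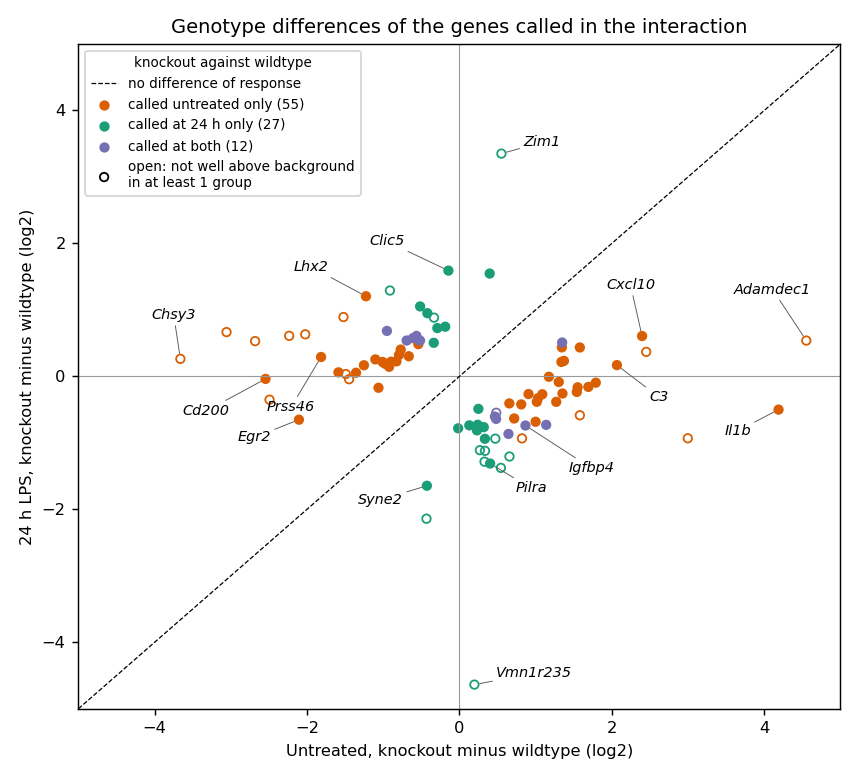
The 94 genes called in the difference of response are placed by knockout minus wildtype in untreated cells (x axis, log2) and after 24 h of LPS (y axis, log2), coloured by which of those differences was called. The 55 genes called when untreated only spread along the horizontal axis, and the 27 called at 24 h only spread along the vertical axis; open points were not well above background in at least 1 group, so their distance is not a measured size.

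In most of the 55 genes that differed when untreated only, the genotypes started further apart than they ended: the untreated difference was over 2 times the 24 h difference in 46 of them, and Lhx2 (below) is among the exceptions. Their median absolute genotype difference was 1.35 untreated and 0.30 at 24 h. All 28 with a negative difference of response began higher in the knockout, and all 27 with a positive one began lower. These sizes and signs nearly follow from how the class was picked. At 3 h of LPS, on other arrays but of the same 4 mice, the sign of the untreated genotype difference was seen in 49 of the 55, against 66.9% of all genes and 84.0% of the 1548 genes called when untreated. The 3 h difference passed in 12 of the 55, against 1.66% of all genes, 1.06% higher and 0.6% lower in the knockout.

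Il1b had levels of -4.80 and -5.14 in untreated wildtype samples and -0.17 and -1.39 in untreated knockout samples. At 24 h it had 0.46 and 0.54 in wildtype and -0.27 and 0.28 in knockout samples. The untreated wildtype samples stood apart as low. The untreated and 24 h knockout samples overlapped each other. At 24 h both knockout samples lay below both wildtype ones, but that difference of -0.50 did not pass limma's test (adjusted p = 0.448). The gene was 18.2-fold higher in untreated knockout cells and rose 44.2-fold in wildtype (adjusted p = 7.25e-06), whereas the knockout value of 0.78 ± 0.35 did not pass (adjusted p = 0.0899). The difference of response was -4.69 ± 0.50 (adjusted p = 0.0276, and 0.0395 with the mouse as a block). It missed the threshold without untreated wildtype replicate 1 or 2 (adjusted p = 0.0579 and 0.0606) and without 24 h wildtype replicate 1 (0.0663). At 3 h the genotype difference was 0.17.

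C3, Cfb and Cd55 belong to the complement system, and all 3 began higher in the knockout and ended close to the wildtype. C3, the central complement component, had levels of -0.66 and -0.75 in untreated wildtype and 1.61 and 1.11 in untreated knockout samples, and 6.32, 6.44, 6.48 and 6.61 in wildtype and knockout samples at 24 h. The untreated samples of the genotypes were far apart and the 24 h samples close. Both knockout levels lay above both wildtype ones at 24 h, but that difference of 0.17 did not pass limma's test (adjusted p = 0.609). C3 rose 135-fold in wildtype and 36.3-fold in knockout cells, a difference of response of -1.90 ± 0.24 (adjusted p = 0.0384). Cfb, which encodes complement factor B, had -6.23 and -6.70 against -4.50 and -5.05 when untreated and 5.48 and 5.25 against 5.28 and 5.13 at 24 h, and rose in both genotypes (-1.85 ± 0.29 for the difference, just under the threshold). Cd55, which encodes an inhibitor of complement on the cell surface, began 2.93-fold higher in the knockout, with -5.68 and -5.53 in wildtype and -3.93 and -4.17 in knockout samples, and ended at -1.66 and -1.45 against -1.87 and -1.57. Its difference of response was -1.72 ± 0.23 (adjusted p = 0.0387).

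The chemokine gene Cxcl10 stood at -1.71 and -2.28 in untreated wildtype and 0.38 and 0.43 in untreated knockout samples, and at 6.58 and 6.52 against 7.13 and 7.19 at 24 h. Here the knockout samples were the higher ones at both times, by 5.27-fold and then by 1.52-fold, and the latter difference did not pass (adjusted p = 0.0888). Its difference of response was -1.79 ± 0.23 (adjusted p = 0.0384).

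Several other genes with a higher start in the knockout rose with LPS in wildtype cells only by the test. Ier3, an immediate early gene that modulates NF-kB and survival signals, had -0.53 and -0.82 in untreated wildtype and 1.39 and 0.84 in untreated knockout samples, while all 4 samples at 24 h lay between 0.58 and 0.74. Slc39a4, which encodes a zinc importer, had -1.75 and -2.03 against -0.11 and -0.59 untreated, and -0.51 and -0.58 against -0.71 and -0.85 at 24 h. Their differences of response were -1.88 ± 0.28 (adjusted p = 0.0473) and -1.77 ± 0.28 (just under the threshold), and the knockout response did not pass for either.

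Cish, Coq8a and Chst7 fell more in the knockout, again from a higher start. Cish, a STAT5-induced inhibitor of cytokine signalling, had -2.46 and -2.73 in untreated wildtype and -1.19 and -1.46 in untreated knockout samples, and -2.70 and -2.64 against -3.07 and -3.03 at 24 h. It fell 3.31-fold in the knockout, with no change that passed in wildtype (difference of response -1.65 ± 0.19, adjusted p = 0.0278). Coq8a, which encodes a kinase-like protein of coenzyme Q synthesis, fell 1.33-fold and 4.27-fold (-1.68 ± 0.21, adjusted p = 0.0320). Chst7, a carbohydrate sulfotransferase gene, fell 3.38-fold and 10.3-fold (-1.61 ± 0.21, adjusted p = 0.0449); it has no value for 24 h wildtype replicate 1, and with the mouse as a block its adjusted p was 0.0647.

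Among genes that began lower in the knockout, Cd200 had levels of -1.64 and -1.62 in untreated wildtype and -4.37 and -3.97 in untreated knockout samples. At 24 h it had 0.86 and 0.95 in wildtype and 0.76 and 0.97 in knockout samples, which overlapped. It rose 5.78-fold in wildtype and 32.8-fold in knockout cells, a difference of response of 2.51 ± 0.23 (adjusted p = 0.0202). Without untreated knockout replicate 1 the adjusted p was 0.0514. Cd200r4, which encodes a receptor of the CD200R family, also began lower and rose in both genotypes, with a difference of response of 1.17 ± 0.18 that was lost with the mouse as a block (adjusted p = 0.0640); it was named after its value was seen.

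Fabp4 and Pparg, both genes of lipid handling, also began lower in the knockout. Fabp4, which encodes a fatty acid carrier of macrophages and fat cells, had 4.29 and 4.56 in untreated wildtype and 2.57 and 3.11 in untreated knockout samples, and all 4 samples at 24 h were between 5.33 and 5.45. Its difference of response was 1.65 ± 0.24 (adjusted p = 0.0449). Pparg, which encodes the nuclear receptor that drives Fabp4, had 2.00 and 2.13 against 1.14 and 1.41 untreated and 1.45 and 1.54 against 1.80 and 1.83 at 24 h. It fell in wildtype and rose in knockout cells, with a difference of response of 1.12 ± 0.17 just under the threshold.

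The transcription factor genes Egr2 and Atf3 followed different courses with LPS. Egr2 had 1.77 and 1.90 in untreated wildtype and -0.46 and -0.09 in untreated knockout samples, and -2.04 and -2.13 against -2.89 and -2.57 at 24 h. It stayed lower in the knockout, but the 24 h difference of -0.65 did not pass (adjusted p = 0.0686). Egr2 fell 15.1-fold in wildtype and 5.50-fold in knockout cells (1.45 ± 0.22, adjusted p = 0.0478, and 0.0506 with the mouse as a block). Atf3, which represses inflammatory genes, had 3.73 and 3.83 against 2.48 and 2.88 untreated and 4.72 and 4.79 against 5.12 and 4.91 at 24 h. It rose in both genotypes, more in the knockout (1.36 ± 0.20, adjusted p = 0.0465, and 0.0542 with the block).

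Prss46, a serine protease gene, had -4.39 and -4.28 in untreated wildtype and -6.19 and -6.11 in untreated knockout samples, and -1.47 and -1.51 against -1.25 and -1.14 at 24 h (2.11 ± 0.19, adjusted p = 0.0202). Lhx2, a LIM homeobox transcription factor gene, had -4.17 and -3.58 against -5.36 and -4.85 untreated and 0.87 and 0.73 against 2.06 and 1.96 at 24 h. Lhx2 was lower in the knockout before LPS and higher after it, by similar amounts (2.34-fold and 2.31-fold), but only the untreated difference passed; its difference of response was 2.43 ± 0.38, just under the threshold, and 0.0602 was its adjusted p with the block. Tmem202, a transmembrane protein gene, and A530064D06Rik gave 1.42 ± 0.20 and 1.41 ± 0.22.

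**Figure D3:**
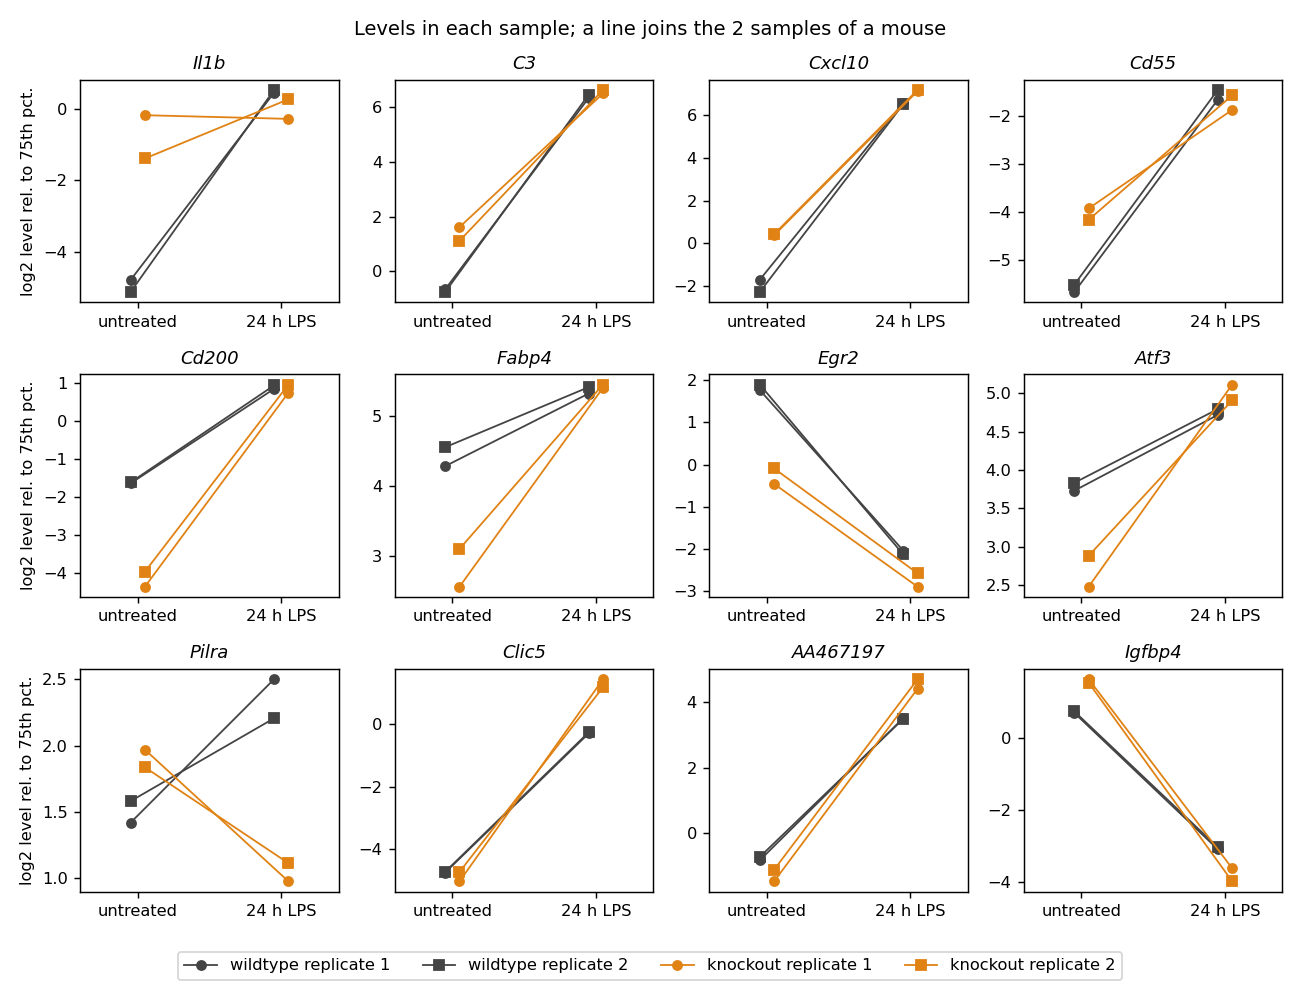
Levels (log2, with the 75th percentile of the array at 0) of 12 genes in each of the 8 samples, with a line joining the untreated and 24 h sample of a mouse. In the upper row the knockout starts above the wildtype and the lines come closer by 24 h, though those of Cxcl10 stay apart. In the middle row the knockout starts below. In the lower row the lines of Pilra, Clic5 and AA467197 start closer and lie further apart at 24 h, while Igfbp4 starts higher in the knockout and ends lower.

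In the 27 genes that differed at 24 h only, the median absolute genotype difference was 0.33 untreated and 1.05 at 24 h. They divided into 17 with a negative difference of response, all lower in the knockout at 24 h, and 10 with a positive one, all higher. Here too the sizes and signs nearly follow from how the class was picked. At 3 h, in the same mice, 14 of the 27 had the sign that they later showed at 24 h. The share was 60.1% of all genes and 77.6% of the 549 genes called at 24 h. The 3 h difference passed in 4 of the 27, against 1.66% of all genes. Division by the spike-in slope left 2 of the 10 positive and 11 of the 17 negative genes called, against 48 of the 55 that differed when untreated only.

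Pilra was the only called gene that rose in wildtype and fell in knockout cells. Its levels were 1.42 and 1.58 in untreated wildtype and 1.97 and 1.84 in untreated knockout samples, and 2.50 and 2.21 against 0.97 and 1.11 at 24 h. The order of the genotypes turned over, with no overlap at either time, though the untreated difference of 0.40 did not pass (adjusted p = 0.0795). The 24 h difference was 2.48-fold and the difference of response -1.71 ± 0.17 (adjusted p = 0.0210); all 3 probes of the gene that entered had the same sign.

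The activating receptors of the same family on mm9 chromosome 5 were called at both times. Pilrb1 had -3.10 and -3.17 in untreated wildtype and -1.82 and -2.17 in untreated knockout samples, and -0.85 and -1.09 against -1.71 and -1.68 at 24 h. It rose 4.49-fold in wildtype, with no change that passed in the knockout (-1.87 ± 0.21, adjusted p = 0.0278). Pilrb2, named after its value was seen, had -0.92 and -0.80 against -0.06 and -0.37 untreated and 0.76 and 0.52 against -0.21 and -0.24 at 24 h (-1.51 ± 0.17). These genes are paralogs with near-identical stretches, as the upstream windows above show for Pilra and Pilrb1, and their probes may read more than 1 of them.

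Clic5, a chloride intracellular channel gene, had the largest positive value among the genes called at 24 h only and above background in all 4 groups. Untreated wildtype samples stood at -4.76 and -4.73 and untreated knockout samples at -5.04 and -4.74, and the 24 h levels were -0.30 and -0.26 against 1.44 and 1.18. The untreated samples were close and the 24 h knockout samples were 3.01-fold higher. Clic5 rose 22.1-fold in wildtype and 73.6-fold in knockout cells (1.74 ± 0.23, adjusted p = 0.0384, and 0.0641 after division by the spike-in slope).

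AA467197, which encodes a small mitochondrial protein induced in inflammation, had -0.82 and -0.72 against -1.46 and -1.11 untreated and 3.52 and 3.49 against 4.41 and 4.70 at 24 h. Its difference of response was 1.57 ± 0.23 (adjusted p = 0.0465), and it was lost with the mouse as a block (adjusted p = 0.0598) and after division by the slope (adjusted p = 0.0783).

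Late differences were also seen in genes that ended below their untreated level. Smyd3, which encodes a lysine methyltransferase, started at -1.23 and -1.34 in wildtype and -1.28 and -1.33 in knockout samples and ended at -2.64 and -2.71 against -3.44 and -3.48 (-0.76 ± 0.11, adjusted p = 0.0449, and 0.0657 after division by the slope). Syne2, a nuclear envelope gene, ended at -4.15 and -4.05 against -5.87 and -5.62, but only 1 of its 2 probes had this sign. Both were named after their values were seen.

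The 12 genes called at both times mostly crossed over. Igfbp4, which encodes a binding protein of insulin-like growth factors, had 0.71 and 0.75 in untreated wildtype and 1.65 and 1.55 in untreated knockout samples, and -3.09 and -3.03 against -3.62 and -3.98 at 24 h. It was higher in the knockout before LPS and lower after it, and fell in both genotypes (-1.61 ± 0.19, adjusted p = 0.0290). Asph, which encodes an aspartate hydroxylase, did the opposite, with 0.71 and 0.68 against -0.35 and -0.17 untreated and 1.32 and 1.41 against 1.95 and 2.14 at 24 h (1.63 ± 0.17, adjusted p = 0.0276). Focad, which encodes focadhesin, had 0.32 in both untreated wildtype samples and -0.40 and -0.34 in untreated knockout samples. At 24 h Focad had 0.42 and 0.32 against 0.88 and 0.94, and it rose in knockout cells (1.23 ± 0.12, adjusted p = 0.0210), with 0.05 in wildtype. Slc28a2, a nucleoside transporter gene, and its neighbour Slc28a2b gave 1.17 ± 0.18 and 1.18 ± 0.14, and probes may read both.

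Of the 94 genes, 26 had at least 1 of the 4 groups in which the 2 arrays were not both well above background, and no size is given for their difference of response. Among negative ones, Vmn1r235, a vomeronasal receptor gene, was above background in the 24 h wildtype samples only (-4.39 and -3.25), at least 5.28-fold above the knockout; with the mouse as a block its adjusted p was 0.0578. Adamdec1, which encodes a secreted metalloprotease, was above background only in untreated knockout cells, where 1 of 2 samples has a value (-4.54), at least 7.33-fold above wildtype, and its adjusted p with the block was 0.0649. Ppm1n, a phosphatase gene, was at -5.29 and -5.57 in wildtype 24 h samples, at least 3.95-fold above untreated wildtype ones.

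Hpgd, which encodes the enzyme that degrades prostaglandins, was above background only when untreated, with -3.62 and -3.85 in wildtype and -2.15 and -2.16 in knockout samples (2.99-fold higher), and fell at least 8.57-fold and at least 16.8-fold. Arg2, which encodes arginase 2, was not above background in untreated wildtype cells alone, and untreated knockout samples at -6.46 and -6.58 were at least 1.86-fold higher. It ended at -5.74 and -5.92 against -5.37 and -5.56.

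Among positive ones, Chsy3, a chondroitin synthase gene, and Pla2g2c, a phospholipase gene, were above background only in untreated wildtype cells, at least 2.53-fold and 1.06-fold above the knockout. Ttll2, a tubulin ligase-like gene, was not well above background in untreated knockout cells alone and rose there at least 10.3-fold. Zim1, an imprinted zinc finger gene, was above background in 24 h knockout cells only, where 1 of 2 samples has a value (-5.56). Cxcl3 and Gm3064 were above background in none of the 4 groups, so their calls rest on signals at background.

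Gene lists were read by counts and medians beside those of all genes. For the untreated and 24 h genotype differences, the share of all genes at an unadjusted p under 0.05 was not counted. List counts at an unadjusted p for those differences therefore cannot be read as above or below the share of all genes. Of 31 measured interferon-stimulated genes, 17 were higher in the untreated knockout (3.73% of all genes were) and 0 lower, while at 24 h 0 were called by limma (2.39% of all genes were), with 12 at an unadjusted p under 0.05. Their median genotype difference was 0.62 untreated and 0.27 at 24 h, against 0.04 and 0.00 over all genes. Over the other scalings 14 to 24 were higher untreated, and the 24 h median fell to 0.05 after division by the spike-in slope and to 0.12 with quantile normalization. They rose in both genotypes, with 30 of 31 called in each and median responses of 4.84 in wildtype and 4.31 in knockout cells. By limma 0 members were called in the difference of response itself (10 at an unadjusted p under 0.05, against 14.6% of all genes), although it was below 0 in 29 of 31 (median -0.36 against -0.05 over all genes). The 3 largest values were -2.01 ± 1.30 for Ifi44, -1.13 ± 0.21 for Ifit3, an antiviral RNA-binding protein gene, and -1.06 ± 0.28 for Irf7, the interferon regulatory factor gene (adjusted p = 0.524, 0.0697 and 0.154).

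Interferon-inducible GTPases, which attack the vacuoles of microbes, gave 8 of 12 members higher in the untreated knockout and 1 at 24 h (Tgtp1), with medians of 0.82 and 0.42, the latter 0.24 after division by the slope. The largest differences of response were those of Gbp7 at -1.45 ± 0.32, Gbp5 at -1.07 ± 0.22 and Gbp3 at -1.04 ± 0.24, none of which passed; 0 members were called by limma, with 6 at an unadjusted p under 0.05. MHC class II and costimulation genes gave 10 of 16 higher untreated and 0 called by limma at 24 h (12 at an unadjusted p under 0.05), with medians of 0.75 and 0.53; with other scalings up to 3 were called at 24 h. H2-Ab1 was 2.37 and 0.99 apart at the 2 times, Cd74, the invariant chain, 2.27 and 0.91, and H2-Eb1 2.60 and 1.30, and their differences of response were -1.39 ± 0.58, -1.36 ± 0.43 and -1.30 ± 0.57. The B cell and dendritic cell marker lists, which hold no class II genes, had summed levels that differed between untreated genotypes in opposite directions (above). The median untreated genotype differences over their measured members were both above 0, at 0.27 and 0.10.

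NF-kB subunits and IkB proteins were higher untreated in 5 of 11 members and called by limma in 0 at 24 h, with 3 at an unadjusted p under 0.05 (medians 0.32 and 0.15, the latter 0.06 after division by the slope). Nfkbia, the inhibitor IkB alpha, was 0.84 and 0.05 apart, Relb 0.94 and 0.05, and Bcl3 1.35 and 0.47, with differences of response of -0.79 ± 0.15, -0.89 ± 0.17 and -0.88 ± 0.28 that did not pass. Complement and acute-phase genes gave 7 of 22 higher and 1 lower untreated, and 1 lower at 24 h; C3 and Cfb were called in the difference of response, and Cp, which encodes ceruloplasmin, had -2.19 ± 0.42 (adjusted p = 0.0745). MHC class I and immunoproteasome genes gave 5 of 15 higher untreated and 1 at 24 h, with medians of 0.35 and 0.20. After division by the slope these medians were -0.01 and 0.03, and 2 to 8 members were higher untreated over the scalings. Their largest differences of response were those of Tapbp, Tap1 and Tapbpl, between -0.41 and -0.33.

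**Figure D4:**
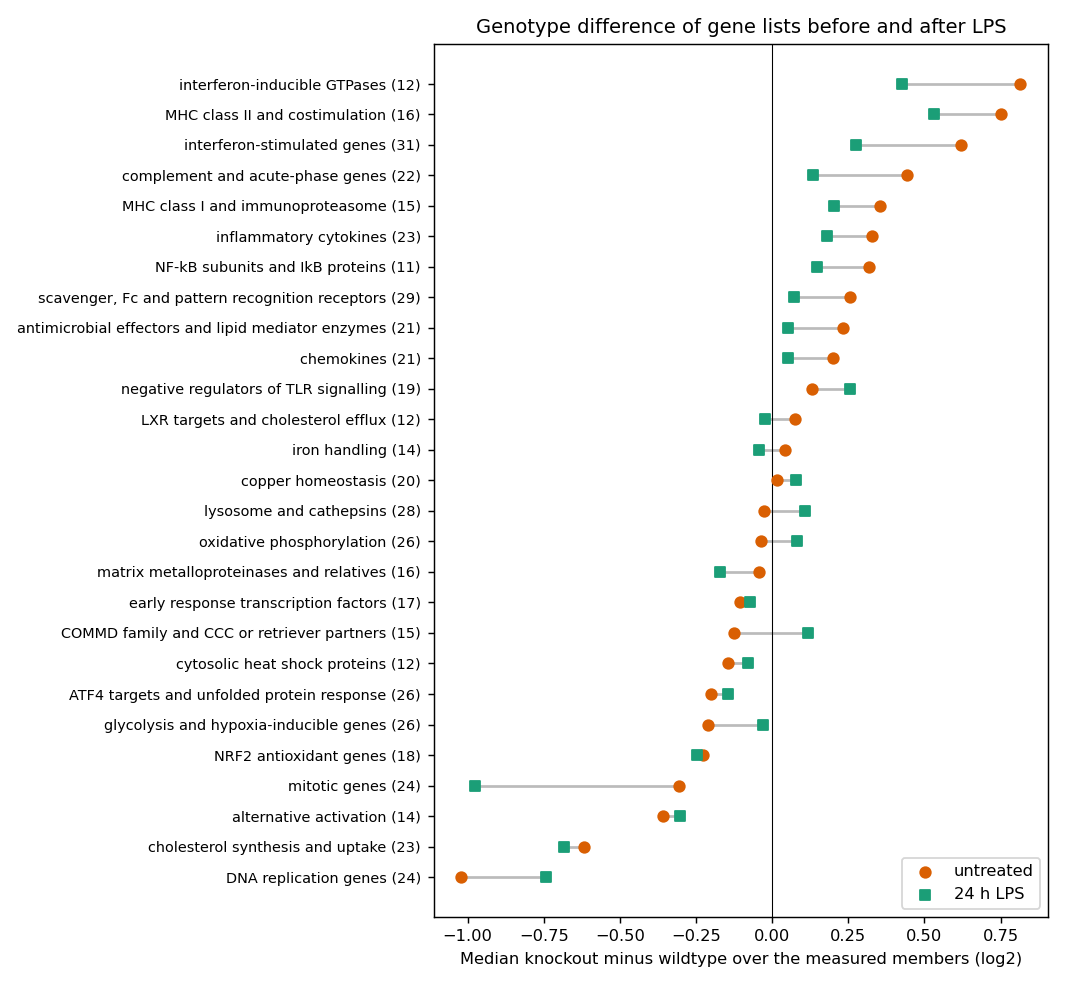
Median genotype difference (knockout minus wildtype, log2) over the measured members of each gene list, in untreated cells (circles) and at 24 h of LPS (squares), with the number of measured members in brackets. For interferon-stimulated genes the median goes from 0.62 to 0.27, and for mitotic genes from -0.31 to -0.97.

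Cytokine and chemokine genes were called singly. Of 23 inflammatory cytokine genes, Il1b alone was called in the difference of response. Il1rn, which encodes the interleukin-1 receptor antagonist, went the other way, with genotype differences of -1.65 untreated and 0.08 at 24 h (1.73 ± 0.37, adjusted p = 0.0929), and Csf2 was below background in all 4 groups. Of 21 chemokine genes, Cxcl10 and Cxcl3 were called. Ccl2 and Ccl7, which attract monocytes, were lower in the untreated knockout (-2.32 and -1.97), with differences of -0.08 and 0.05 at 24 h, but their differences of response of 2.25 ± 0.66 and 2.02 ± 0.68 did not pass. Cxcl1, a neutrophil chemokine, was lower in the knockout at 24 h (adjusted p = 0.0241), where it was not above background, and its difference of response did not pass (adjusted p = 0.0700).

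Inhibitors of TLR signalling held 3 of the 94 genes among 19 members (0.409% of all genes were called, here and for the lists that follow): Cish, Atf3 and Dusp1, a phosphatase that switches off MAP kinases. Dusp1 had genotype differences of -0.54 untreated and 0.48 at 24 h (1.02 ± 0.15, adjusted p = 0.0449, and 0.0524 with the block), and Dusp2 had 1.51 ± 0.27 (adjusted p = 0.0684). Socs3, a further inhibitor, was 2.03 higher in the untreated knockout and 0.69 at 24 h, where it did not pass. Alternative activation genes gave Egr2 and Pparg of 14, and the lectin gene Clec10a had -1.66 ± 0.37. Early response transcription factors gave Egr2 and Ier3 of 17, and Nr4a1 had -1.34 ± 0.29.

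Of the 27 lists, 21 held 0 called members in the difference of response by limma. For that difference 110 of their 416 measured genes (26.4%) had an unadjusted p under 0.05, against 14.6% of all genes. The 14.6% does not apply to the unadjusted counts of untreated and 24 h genotype differences below. Cholesterol synthesis and uptake genes were lower in the knockout at both times, with 11 of 23 called untreated and 5 at 24 h (2 to 8 over the scalings) and medians of -0.62 and -0.68. The median of their differences of response was 0.10. Stard4, which encodes a cholesterol carrier, had -0.58 ± 0.41 and Sc5d, which encodes an enzyme late in cholesterol synthesis, 0.53 ± 0.23. DNA replication genes had medians of -1.02 untreated and -0.74 at 24 h with 3 of 24 called untreated, all lower, and 23 at an unadjusted p under 0.05. After division by the slope 15 were lower untreated (2231 of all 22994 genes were), and with normexp 12 (1102 of all genes were). In the difference of response Pcna, the replication clamp, had 1.33 ± 0.32 and Ccne2, which encodes a cyclin of the start of replication, 1.36 ± 0.84. Mitotic genes had medians of -0.31 and -0.97 with 0 of 24 called untreated by limma (1 at an unadjusted p under 0.05) and 1 (Nusap1, lower) at 24 h (22 at an unadjusted p under 0.05), where 0 to 8 were called over the scalings. They fell in both genotypes (23 and 22 of 24 called), and Cdc20, Kif20a and Cenpf had -1.11 ± 0.33, -1.15 ± 0.40 and 2.11 ± 1.35.

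Receptor and effector lists gave values that came near the threshold. Among scavenger, Fc and pattern recognition receptors, Marco, a scavenger receptor, had a genotype difference of -2.07 at 24 h and a difference of response of -1.84 ± 0.35 (adjusted p = 0.0729), Tlr2 had -1.52 ± 0.25 (adjusted p = 0.0576) and Clec4n -1.71 ± 0.40. Among antimicrobial effectors and lipid mediator enzymes, Acod1, which makes itaconate, had -1.06 ± 0.17 (adjusted p = 0.0522), Nos2, the inducible nitric oxide synthase gene, 0.74 ± 0.13 (adjusted p = 0.0593) and Lyz2 -0.75 ± 0.17. Among lysosome genes, the osteoclast-associated Atp6v0d2 and Ctsk had 0.99 ± 0.17 and 0.76 ± 0.13 (adjusted p = 0.0618 and 0.0626), and Lipa 0.62 ± 0.27. Of the metalloproteinases, Mmp14 had -1.56 ± 0.32, Mmp2 -1.31 ± 0.44 and Mmp10 1.67 ± 0.90.

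Metabolic and stress lists had medians from -0.05 to 0.19, although single members reached 1.10 and -1.16. The median difference of response was 0.15 for oxidative phosphorylation (Cox7a2 0.45 ± 0.26, Cox5b 0.41 ± 0.21, Ndufs4 0.36 ± 0.12), 0.19 for glycolysis and hypoxia-inducible genes (Ankrd37 1.10 ± 0.26, Egln3 1.10 ± 0.44, Egln1 -0.71 ± 0.25) and 0.14 for ATF4 targets and the unfolded protein response (Trib3 1.06 ± 0.34, Chac1 0.96 ± 0.36, Mthfd2 0.96 ± 0.55). It was 0.18 for cytosolic heat shock proteins (Hspa1a 0.46 ± 0.26, Hsp90aa1 0.34 ± 0.16, Bag3 0.32 ± 0.18), -0.05 for NRF2 antioxidant genes (Slc7a11 -1.16 ± 0.31, Srxn1 0.62 ± 0.14, Prdx1 0.61 ± 0.19) and -0.04 for LXR targets and cholesterol efflux (Abca1 -0.77 ± 0.32, Nr1h3 0.74 ± 0.13, Abcg2 -0.57 ± 0.17). None of the genes named for these lists passed the test of the difference of response, and the median turned positive with 2 of the other 6 scalings for NRF2 genes and with 3 for LXR targets.

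The lists closest to the known roles of COMMD1 were also examined. Of 15 genes of the COMMD family and the CCC or retriever complexes, Commd1 alone passed between genotypes at either time. After division by the slope 7 of the 15 were lower in the untreated knockout. Under that scaling 2231 of all 22994 genes were lower and 4159 higher. The count of lower genes was 8 of 12 for cytosolic heat shock proteins and 1 of 20 for copper homeostasis genes, so it varied between lists. The largest differences of response, 0.50 ± 0.15 for Vps29, 0.39 ± 0.16 for Commd4 and 0.34 ± 0.12 for Vps26a, did not pass. The 20 copper homeostasis genes had a median of 0.03, negative with 1 of the other scalings, with Cp as above, Sco1 at 0.59 ± 0.13 and Steap3 at 0.52 ± 0.15, and the 14 iron handling genes one of -0.06, positive with 2 of them, with Hfe at -0.81 ± 0.25 and Tfrc at 0.56 ± 0.29 beside Cp.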

How the data were processed

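RNA of 12 macrophage samples from 4 mice was measured on 12 single-colour Agilent arrays, and the 8 untreated and 24 h samples were compared. Per the file headers, the scanner files give for each spot a processed intensity, from which the authors' program had removed background and a spatial trend; it was Agilent Feature Extraction 10.7.3.1 per the submitters' processing notes. The authors' deposited value table holds log2 values. In each column 99.4% to 99.9% of the probes well above background match the log2 processed signal of the array, less 1 constant, within 0.01. Its column medians run from -4.50 to -4.30, and it served as an alternative.

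Control spots and outlier spots were left out of 43020 spots, repeat spots were averaged to 39429 probes, and the 75th percentile of each array was subtracted from its log2 signals. No spot was saturated, and outlier spots numbered 132 to 214 per array, with 589 on knockout 24 h replicate 1. A probe entered where 1 group or more had it well above background in both samples (28446 probes), and the brightest stood for its gene, giving 22994 genes, 18056 with a symbol matched to RefSeq. Probe positions are those of the files (mm9).

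limma 3.58.1 (R 4.3.3) was fitted to all 12 arrays with a mean per group (6 residual and 2.23 prior degrees of freedom); p-values are two-sided and were adjusted over all genes (Benjamini-Hochberg), and rose, fell, higher and lower mean an adjusted p under 0.05. Folds with "at least" are set against the lowest detected signal of each array. On simulated data the fit recovered 37% of 100 genes changed by 1 and 81% of 100 changed by 2 (log2), with 5 false calls among 22656 genes. The simulated noise was normal and independent between arrays, with no effect of mouse, slide or spike-in slope. These rates therefore check the fit and are not rates for the real data. The labels give the same mouse for the untreated and 24 h sample of a number, and the residuals of these pairs correlated with r of 0.13 in both genotypes, so the mouse block is given where it changes a call. Mouse and genotype coincide, so a fixed block cannot give the genotype difference at a single time.

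Genes named are the 12 with the largest difference in each direction and the top 3 of each class, among called genes matched and above background in all 4 groups, the 5 largest dim ones in each direction, and the top 3 of each of 27 gene lists; a few genes that this rule names are not reported here. The lists, markers and classes were chosen with earlier results of these data known. Alternatives were other scalings, background corrections, filters, probe rules, the mouse as a block and leaving out each sample.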

Additional observations from a re-analysis of the deposited data

Results flagged for a closer look

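The 24 h LPS response differed between genotypes, by limma's test of the difference itself, in 94 genes. Higher responses in the knockout were 2.51 (log2) for Cd200, 2.43 for Lhx2, 2.11 for Prss46, 1.74 for Clic5, 1.65 for Fabp4, 1.63 for Asph, 1.57 for AA467197, 1.45 for Egr2, 1.42 for Tmem202, 1.41 for A530064D06Rik, 1.36 for Atf3 and 1.23 for Focad. Lower responses were -4.69 for Il1b, -1.90 for C3, -1.88 for Ier3, -1.87 for Pilrb1, -1.85 for Cfb, -1.79 for Cxcl10, -1.77 for Slc39a4, -1.72 for Cd55, -1.71 for Pilra, -1.68 for Coq8a, -1.65 for Cish and -1.61 for Chst7. All 24 are above background in the 4 groups, and adjusted p for these genes lay below 0.05 as reported above.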

How the results depend on the processing

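Over 21 alternatives 35 of 36 named genes kept their direction, while 305 of 743 values no longer passed. The exception in direction was Adamdec1 without the filter on dim probes (0.79, adjusted p = 0.820). The named genes were picked for large differences in these arrays, and every alternative used the same arrays or all but 1 of them. A kept direction was therefore nearly set in advance and is not further evidence. The 94 calls became 153 with the replicate block (mouse as a fixed term) and 207 with it as a random effect, 2 on the 8 arrays alone and 0 there with the replicate block (3114 at an unadjusted p under 0.05), 0 without the filter (3392 at an unadjusted p under 0.05), 245 with probes above background on all arrays, 254 with normexp and 178 from the deposited table. The share of positive calls moved from 44.7% to 26.8% after division by the spike-in slope, 34.4% when scaled on detected probes, 62.6% with normexp and 60.7% from the deposited table. The untreated genotype difference was called in 937 genes on 8 arrays, 6390 after division by the slope, 453 without the filter and 2567 with normexp, and the 24 h difference in 178, 134 and 107 in the first 3 of these, 945 with probes above background on all arrays and 929 scaled on detected probes. Of the 94 genes, 50% were dominated by the untreated difference, against 45.3% to 54.3% of the genes called under the other settings with all samples and any call, except 100% on 8 arrays (2 genes) and 70.5% after division by the slope. Non-overlapping mice with means at least 2-fold apart were counted in 400 genes with probes above background on all arrays, 1806 without the filter and 284 with normexp. Leaving out 1 sample gave 4 to 241 calls, 152 to 1807 untreated and 61 to 792 at 24 h, and a share dominated by the untreated difference of 19.9% to 100%. The cause of these shifts was not tested; fewer samples and more dim genes are part of some settings. Of 774 list medians under alternatives 83 moved by over 1 SD.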
